A study of Mus musculus with 71 samples.

Results

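3T3-L1 adipocytes were exposed to rosiglitazone (RSG) or to its vehicle for 48 hrs, and 6 arrays were chosen by their sample titles, 3 with RSG and 3 with DMSO, of 71 arrays in the series. Both groups were differentiated in the same way from 3T3-L1 cells, a fibroblast-like mouse line that turns into fat cells in culture, with insulin, 3-isobutyl-1-methylxanthine, dexamethasone and 100 nM RSG, so the vehicle group had met the drug before as well. After a washout of 24 hrs in serum-free DMEM/F12 with 1% fatty acid-free albumin, the RSG group received RSG at 1 µM and the other group DMSO in the same medium. Each array held RNA of 2 pooled wells, and the study's methods give 3 batches of differentiated cells as the source of the 3 replicates. The series also holds the same treatments at 1, 2, 4, 7 and 24 hrs and in C3H/10T1/2 adipocytes, and all 35 arrays of 3T3-L1 adipocytes entered the fit so that the spread was estimated from all of them. All 22626 probe sets of the array were considered, and the 18028 whose mean signal reached the presence limit of the study's methods, just under 20, in any group of 3T3-L1 adipocytes were tested. The brightest probe set left out had a highest group mean of 19.867.

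RSG is an agonist of PPARγ, a nuclear receptor that cells need to become adipocytes and that turns on genes for taking up and storing lipid. Bound to its partner RXR, the receptor sits at regulatory DNA of such genes, and ligand binding exchanges corepressors for coactivators. In fat cells the drug is known for raising lipid storage and mitochondrial genes, and ligand-bound PPARγ is also known for lowering inflammatory genes. The genes that fell, and those that rose outside mitochondria, are described here, and mitochondrial genes are given in sum, apart from those that serve as brown adipocyte markers.

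At 48 hrs RSG lowered 1458 and raised 1117 of the 18028 probe sets, 8.09% and 6.20% of those tested, by limma with an adjusted p under 0.05. The lowered probe sets changed by a median of -0.75 on the log2 scale and the raised ones by 0.82, and changes of at least 2-fold were found in 388 lowered and 415 raised probe sets. All RSG arrays lay below all DMSO arrays in 1361 of the lowered probe sets, and above them in 1057 of the raised ones, where 14.4% and 10.8% of all tested probe sets lay apart in these directions. With 1 probe set per gene, 892 genes fell and 646 rose of 10456, or 8.53% and 6.18%, around a median of -0.04. Of the 459 genes on a list of mitochondrial proteins 15 fell and 147 rose. Outside that list 877 genes fell and 499 rose of 9997. Median signals were 52.6 to 60.8 on RSG arrays and 53.1 to 60.7 on DMSO arrays, and arrays correlated at 0.92 to 0.95 within a group and 0.90 to 0.94 between groups. Signals are given on the linear scale of the arrays, for the probe set of a gene with the highest mean. Apart from cell type markers and differences between times or lines, genes were named as changed only where the groups did not overlap. In those genes lack of overlap is no separate result. Gene lists by function were set beside the shares of all genes. Their members were chosen with earlier results of these data known, so the shares describe the lists and are no test. Where a list had no call in a direction by limma, the methods' analysis of variance with the same adjustment made none either.

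The largest falls among genes with both group means above the presence limit included enzymes of steroid and foreign compound metabolism and secreted proteins. Sult1a1, a sulfotransferase that conjugates phenols, had signals of 160.2, 152.1 and 151.2 with RSG, against 1097.8, 803.6 and 1009.4 with DMSO. The highest RSG array was far below the lowest DMSO array, and the gene fell 6.23-fold (log2 -2.64 ± 0.25 SE, n = 3 each, limma adjusted p = 6.01e-09). Cyp2f2, a cytochrome P450 that oxidizes naphthalene and related compounds, had signals of 94.0, 82.5 and 81.0 with RSG and 575.2, 456.5 and 535.5 with DMSO. It fell 6.07-fold (limma adjusted p = 1.47e-14). Hsd11b1, which regenerates active glucocorticoid from its inert form, had signals of 628.0, 575.6 and 684.0 with RSG against 2899.8, 2400.8 and 2502.6 with DMSO. This was a 4.13-fold fall (log2 -2.05 ± 0.13 SE, limma adjusted p = 1.7e-12). The glutathione transferase gene Gstt3 averaged 49.2 ± 10.9 with RSG and 166.9 ± 22.8 with DMSO (SD, n = 3 each), and Abca8a, a lipid transporter of the ABC family, 74.6 ± 29.3 and 350.4 ± 13.2 in the same order. Both fell, by 1.78 and 2.31 on the log2 scale.

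**Figure D1:**
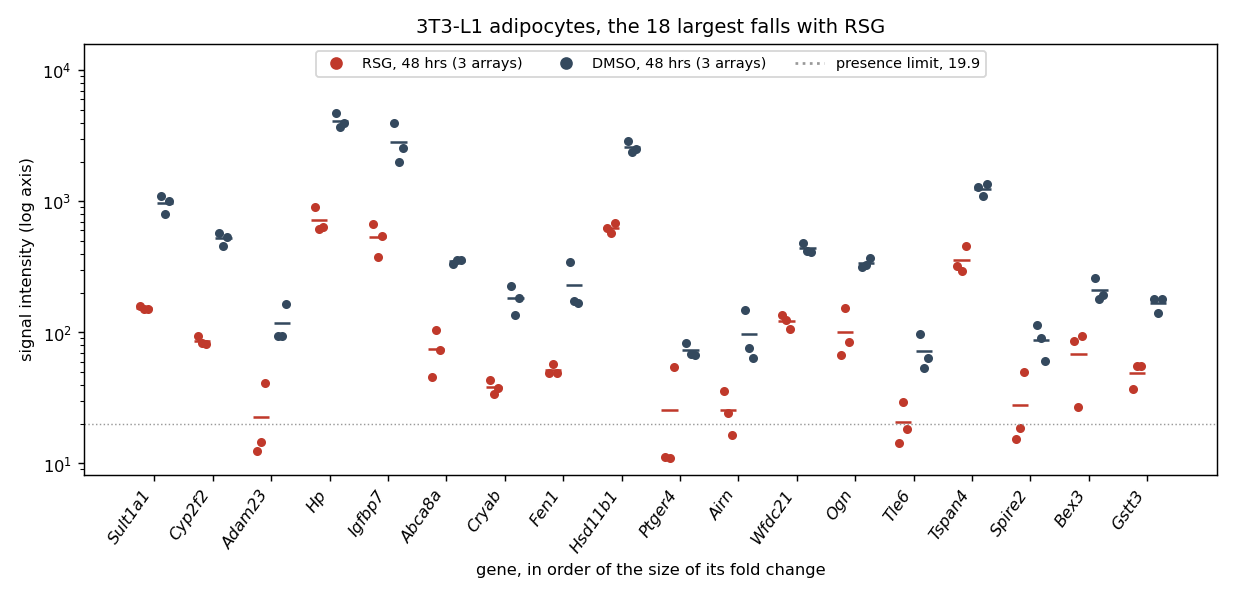
Signal intensity on a log axis for the 18 largest falls outside the mitochondrial list, with 3 RSG arrays (left in each pair) and 3 DMSO arrays (right) per gene and a dotted line at the presence limit. No gene shown has an RSG array above a DMSO array, which the choice of genes required.

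Some secreted proteins of the acute phase response fell with them. Hp, the gene of haptoglobin, which binds free hemoglobin in blood, had signals of 911.5, 614.7 and 643.4 with RSG, against 4701.2, 3715.8 and 3940.5 with DMSO. The groups were far apart, and the fall was 5.76-fold (log2 -2.53 ± 0.16 SE, limma adjusted p = 8.28e-13). Of 13 acute phase genes tested 3 fell (23.1%) and 1 rose (7.69%), at a median of -0.34, beside 8.53% and 6.18% of all genes. The other falls were Orm1 (orosomucoid, a carrier protein of plasma), with a mean of 206.5 ± 50.4 with RSG and 520.5 ± 85.6 with DMSO, and Itih4 (an inter-alpha-trypsin inhibitor chain), with 210.4 ± 66.8 and 479.4 ± 73.3 in the same order (SD, n = 3 each). Serpina3n, an antichymotrypsin-like protease inhibitor, was the gene that rose. Its signals were 148.9, 157.7 and 117.2 with RSG and 88.6, 78.7 and 77.4 with DMSO (log2 0.78, limma adjusted p = 0.00281), and with the replicate number as a block a further gene of the list passed, for 2 in all. Wfdc21, a small secreted whey acidic protein, averaged 121.9 ± 15 with RSG and 437.5 ± 40.2 with DMSO and fell 3.60-fold. The angiotensinogen gene Agt, the source of angiotensin, averaged 273.8 ± 66.0 with RSG and 654.6 ± 21.8 with DMSO. Apod, a small lipid carrier, averaged 255.0 ± 36.3 and 587.3 ± 66.6 in the same order, and both fell (limma adjusted p = 1.63e-06 and 0.000112).

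Extracellular matrix genes were a large group among the falls. Of 40 genes for proteoglycans, glycoproteins and matricellular proteins 13 fell and none rose, at a median of -0.44 (1 was higher at an unadjusted p under 0.05), where 8.53% of all genes fell and 6.18% rose. Igfbp7, a secreted protein of vessel and fibroblast matrix that binds insulin-like growth factors weakly, had signals of 675.0, 374.5 and 544.9 with RSG, against 3975.4, 1983.0 and 2544.1 with DMSO. It fell 5.26-fold (log2 -2.40 ± 0.24 SE, limma adjusted p = 1e-08), while a dimmer probe set of the same gene gave a log2 value of -1.81 that missed the threshold. Dcn, the gene of decorin, a proteoglycan that coats collagen fibrils, had signals of 2104.8, 2316.7 and 2045.6 with RSG and 5770.3, 4128.8 and 4252.2 with DMSO (2.17-fold lower, limma adjusted p = 4.88e-07). Ogn, which codes for osteoglycin, a small leucine-rich proteoglycan, averaged 101.4 ± 45.4 with RSG and 337.9 ± 27.8 with DMSO. Sparc, a collagen-binding matricellular protein, was among the brightest genes that fell, with 4358.9, 3282.7 and 3600.3 with RSG against 6882.4, 5799.6 and 6103.5 with DMSO. Its change was smaller (log2 -0.75 ± 0.11 SE, limma adjusted p = 1.22e-05). Tgfbi, an adhesion protein of the matrix, and Nid2, a basement membrane protein, fell by 1.27 and 1.14 on the log2 scale. Mgp, the gene of matrix Gla protein, an inhibitor of calcification, was under the presence limit on every RSG array, with 2.2, 2.3 and 1.9 against 115.6, 43.4 and 82.5 with DMSO. It was at least 3.75-fold lower, from values floored at that limit (limma adjusted p = 3.68e-08).

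Enzymes that handle collagen moved in both directions. Of 15 genes for collagen processing and crosslinking 6 fell (40%) and 4 rose (26.7%), at a median of -0.22. Pcolce, an enhancer that helps to cut off the C-terminal propeptide of procollagen outside the cell, had signals of 1296.5, 1544.4 and 1227.8 with RSG and 3600.2, 2698.5 and 2508.1 with DMSO (2.15-fold lower, limma adjusted p = 2.94e-07). Crtap, a part of the complex that hydroxylates proline at its 3 position, averaged 671.6 ± 92.1 with RSG and 1298.4 ± 152.7 with DMSO and also fell. The genes that rose were P4ha1 and P4ha2, the catalytic subunits of prolyl 4-hydroxylase, Plod1, a lysyl hydroxylase, and Tgm2, a transglutaminase that crosslinks proteins. P4ha1 had signals of 333.5, 367.3 and 327.9 with RSG against 137.8, 165.9 and 197.5 with DMSO (log2 1.05 ± 0.15 SE, limma adjusted p = 6.47e-06). Of the collagen genes themselves 5 of 19 fell and none rose (also none at an unadjusted p under 0.05), at a median of -0.30, and leaving out DMSO replicate 2 brought these to 2 genes and leaving out RSG replicate 1 or DMSO replicate 3 to 3. Of the matrix proteases and their inhibitors 9 of 29 fell and 2 rose. Mmp11, a metalloprotease of stromal cells, averaged 164.0 ± 17.6 with RSG and 479.8 ± 64.4 with DMSO, and Timp1, an inhibitor of metalloproteases, 175.6 ± 22.4 and 353.3 ± 65.4 in the same order. Adam12, a membrane protease made by preadipocytes, went the other way, at 375.9 ± 57.8 with RSG and 126.7 ± 13.7 with DMSO, and the number of rises was 1 without any of the arrays except DMSO replicate 1.

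Markers of preadipocytes and fibroblasts fell in 6 of 11 tested genes, at a median of -0.69, and none rose (1 at an unadjusted p under 0.05). The member that was higher without passing the adjusted test was Eng, at 2.75-fold. Cd34 was 1.07-fold lower, and Prrx1 was about level between the groups. S100a4, a calcium-binding protein of fibroblasts, had signals of 288.0, 213.2 and 318.2 with RSG against 1446.9, 638.5 and 649.6 with DMSO (log2 -1.65 ± 0.22 SE, limma adjusted p = 2.15e-06). Thy1, a surface protein of fibroblasts, had 114.8, 116.3 and 153.8 with RSG and 281.2, 246.1 and 339.5 with DMSO, and fell 2.25-fold. Neither gene overlapped between the groups. Dlk1, or preadipocyte factor 1, an inhibitor of fat cell formation, averaged 2364.9 ± 137.1 with RSG and 3821.8 ± 477.3 with DMSO and fell by 0.69 on the log2 scale. Vim, the gene of vimentin, had 4186.3, 3664.3 and 3774.2 with RSG and 4320.4, 4753.1 and 5198.3 with DMSO and missed the threshold (adjusted p = 0.148). Most of the summed signal of the 11 marker genes came from Vim and Dlk1. The sum was 7402.1 to 7613.2 with RSG and 10458.7 to 11600.1 with DMSO, with no group mean of these genes under the presence limit. The part that this difference had in the lower matrix genes was not tested, and in RNA of whole cultures fewer cells of a type and less RNA per cell cannot be told apart. Outside the fibroblast and adipocyte lists, no list of a cell type showed several calls. None of 9 macrophage genes, 5 skeletal muscle genes or 6 osteoblast and chondrocyte genes passed the test, and 1 of 6 endothelial genes did. At an unadjusted p under 0.05, 1 macrophage gene was lower, 1 muscle gene was lower and 1 higher, and no osteoblast gene differed. A dimmer probe set of the osteoblast and chondrocyte list was lowered at an adjusted p under 0.05. With the replicate block 1 macrophage gene fell and 2 endothelial genes rose. The single endothelial rise, Flt1, was lost without RSG replicate 1 or 2 or DMSO replicate 1 or 3, and a dimmer Flt1 probe set fell (log2 -2.01, adjusted p = 0.00589).

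Signaling genes of the TGF-β family fell in 10 of 33 cases (30.3%) and rose in 2 (6.06%, about the 6.18% of all genes), at a median of -0.43. Fst, the gene of follistatin, which binds activin, had signals of 102.7, 151.4 and 115.8 with RSG against 278.0, 269.7 and 321.8 with DMSO (log2 -1.25 ± 0.20 SE, limma adjusted p = 2.56e-05). The related Fstl1 averaged 392.8 ± 56.0 with RSG and 829.9 ± 79.6 with DMSO. Id3, an inhibitor of helix-loop-helix factors that BMPs induce, was 1 of the 2 that rose, at 173.3 ± 22.2 with RSG and 84.4 ± 22.7 with DMSO (log2 1.06, limma adjusted p = 0.000246). Of growth factor genes around the IGFs 8 of 34 fell (23.5%) and 4 rose (11.8%), and 5 fell without RSG replicate 1. Igf2, a growth factor of the insulin family, averaged 457.8 ± 74.7 with RSG and 1007.8 ± 183.6 with DMSO. Igfbp4, which binds and inhibits IGFs, had signals of 1954.7, 2107.1 and 2420.9 with RSG against 3826.4, 4145.3 and 3753.7 with DMSO, and it fell in all 6 of its probe sets. Gas6, the ligand of the TAM receptors, and Vegfd, a lymphatic growth factor, fell by 1.17 and 1.15 on the log2 scale. Vegfa, the main angiogenic factor, and Nrg4, a fat cell hormone of the EGF family, were among the rises, at 540.9 ± 82.7 and 254.1 ± 23.7 with RSG against 226.4 ± 38.4 and 140.4 ± 10.5 with DMSO.

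Genes of the actin cytoskeleton and of adhesion fell more often than they rose. There were 12 falls (31.6%) and 1 rise (2.63%) among 38 cytoskeletal genes. The falls were 7 without RSG replicate 2 or DMSO replicate 1, and the rises were 2 with the replicate block. Among 23 adhesion receptors there were 10 falls (43.5%) and 1 rise (4.35%), with 6 falls without DMSO replicate 2 or 3. Tpm1, a tropomyosin that stabilizes actin filaments, had signals of 136.8, 149.0 and 115.7 with RSG and 298.8, 216.6 and 240.5 with DMSO. S100a6, a calcium-binding protein, averaged 1076.1 ± 23.5 with RSG and 1852.9 ± 440.2 with DMSO. The tetraspanins Cd9 and Tspan4, which organize membrane protein complexes, fell by 0.75 and 1.82 on the log2 scale. Tspan4 had 321.7, 295.1 and 453.8 with RSG against 1280.6, 1091.4 and 1350.3 with DMSO (limma adjusted p = 1.17e-08). Of 25 genes of G protein and cAMP signaling 5 fell (20%) and none rose (2 at an unadjusted p under 0.05, and 1 with the replicate block or without RSG replicate 3 or DMSO replicate 1), at a median of -0.16. A dimmer probe set of the list rose. The falls were those of Rgs2, which shortens Gq signals, Rgs3, a further regulator of this family, Gng11, a gamma subunit, Gnai2, the inhibitory alpha subunit, and Ptger4, the prostaglandin E receptor EP4. Rgs2 averaged 525.8 ± 47.6 with RSG and 1239.6 ± 37.5 with DMSO, and Gnai2 411.0 ± 76.0 and 956.1 ± 396.1 in the same order. Ptger4, at 11.2, 11.1 and 54.9 with RSG and 82.8, 68.7 and 67.4 with DMSO, missed the threshold when only the arrays at 48 hrs were fitted (adjusted p = 0.0535).

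Among immune genes, 2 lists held more falls than the share of all genes. Interferon response and antigen presentation genes fell in 10 of 33 cases and chemokine and cytokine genes in 9 of 35. None rose in either list (at an unadjusted p under 0.05, none and 1). The interferon-inducible gene Ifi27l2a, which stood in neither list, was 3.8-fold higher with RSG. The counts of both lists leaned on single arrays, since 5 interferon genes passed without DMSO replicate 1, and 3 and 4 chemokine genes without DMSO replicate 1 and RSG replicate 2. Genes of the NF-κB pathway (2 of 21 lower, 9.52%) and of complement (1 of 12, 8.33%) fell about as often as all genes (8.53%). No gene of these lists rose (3 and none at an unadjusted p under 0.05), but a dimmer probe set of the NF-κB list did. In the NF-κB list 4 fell and 1 rose with the replicate block, the falls were none or 1 without RSG replicate 3, RSG replicate 2 or DMSO replicate 3, and 1 and 2 rose without RSG replicate 3 and DMSO replicate 2. In complement none fell without RSG replicate 3 or DMSO replicate 2, and 2 without DMSO replicate 1. Ifitm3 and Ifitm2, membrane proteins that block virus entry, were bright members. Ifitm3 had signals of 568.6, 652.1 and 925.6 with RSG against 1792.4, 1127.3 and 1435.2 with DMSO (log2 -1.03 ± 0.19 SE, limma adjusted p = 0.000169), and Ifitm2 averaged 1235.6 ± 58.1 with RSG and 2498.5 ± 663.7 with DMSO. Ccl2, the chemokine that draws monocytes, and Cxcl10 passed the test on all arrays but not with every array left out in turn, with adjusted p of up to 0.209 and 0.0617. Lysosomal genes fell in 8 of 31 cases and rose in 1, and the falls were 5, 2, 3 and 4 without RSG replicate 1, RSG replicate 2, DMSO replicate 2 and DMSO replicate 3. Lipa, the acid lipase that breaks down lipid in lysosomes, was the gene that rose, at 1213.7, 1355.3 and 1425.9 with RSG against 842.8, 551.7 and 639.1 with DMSO (limma adjusted p = 3.41e-06).

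Antioxidant and detoxification genes were split, with 13 of 39 lower (33.3%) and 7 higher (17.9%) at a median of -0.22. The number of rises was 3 without RSG replicate 1 and 4 without RSG replicate 2 or DMSO replicate 1. Gpx1, the main glutathione peroxidase of the cytosol, had signals of 680.2, 568.3 and 676.4 with RSG against 1915.6, 1221.7 and 1337.8 with DMSO (2.29-fold lower, limma adjusted p = 3.73e-07). Gstm2, a glutathione transferase, averaged 313.1 ± 66.8 with RSG and 649.5 ± 92.3 with DMSO, and Cyp1b1, an estrogen-oxidizing P450, 306.4 ± 40.6 and 721.8 ± 104.2 in the same order, though a dimmer Cyp1b1 probe set gave 0.22 (adjusted p = 0.796). Hmox1, the heme oxygenase that stress induces, was higher, at 674.1, 1098.7 and 2277.7 with RSG and 375.0, 231.9 and 386.1 with DMSO (log2 1.88 ± 0.31 SE, limma adjusted p = 4.86e-05). Cbr3, a carbonyl reductase, had 1105.6, 1188.3 and 1089.0 with RSG against 568.9, 438.7 and 386.4 with DMSO. Members of this list thus moved both ways, and the choice of the 5 genes named here excluded overlap between the groups.

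**Figure D2:**
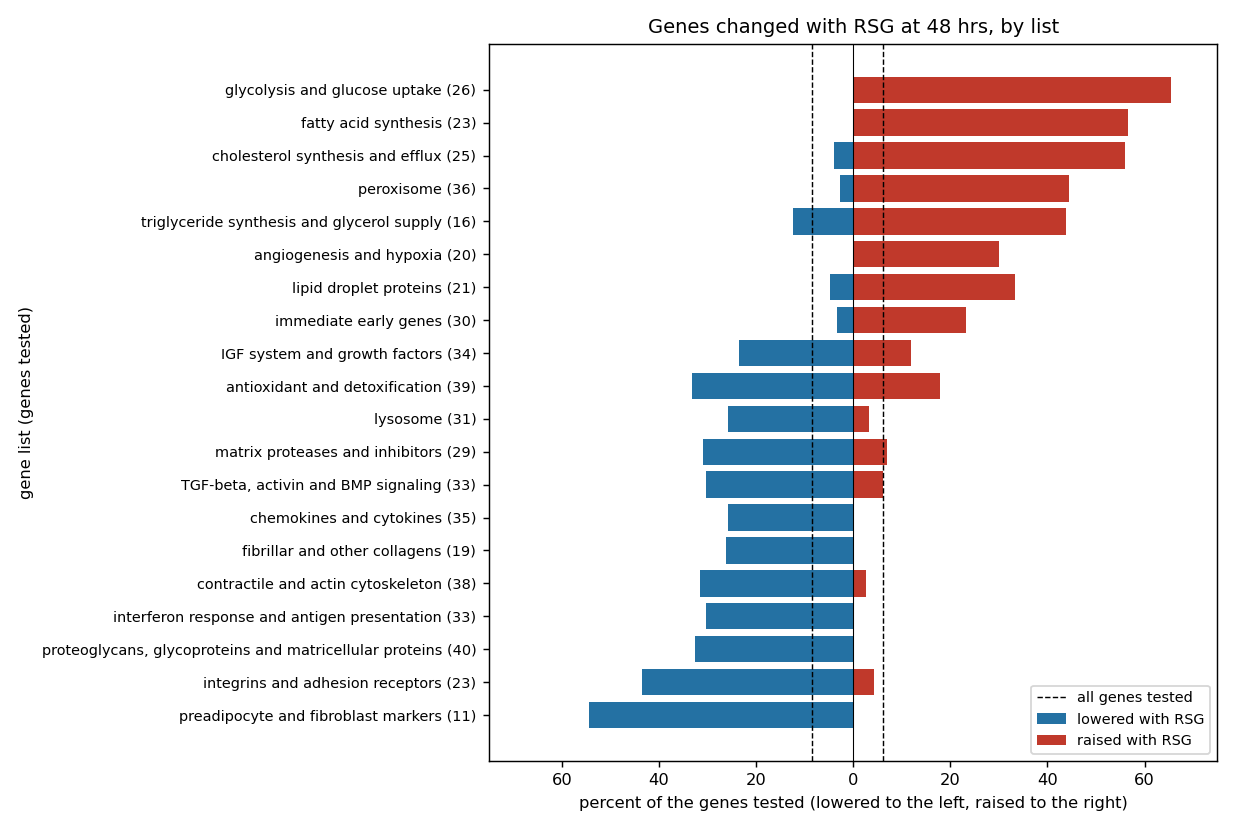
Percent of tested genes that were lowered (left) and raised (right) with RSG at 48 hrs in 20 of 46 gene lists, with the number of genes tested in brackets and dashed lines at 8.53% lowered and 6.18% raised of all genes. The 20 lists were picked by hand. Among those not shown are the proteasome (6.06% each way), Wnt signaling (4.35% lowered, none raised) and PPARγ targets (8.7% lowered, 52.2% raised). Among the lists shown, glycolysis, fatty acid synthesis and cholesterol lists hold the widest bars to the right and the fibroblast markers the widest to the left.

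The receptor itself was lower. Pparg had signals of 947.7, 859.5 and 912.4 with RSG against 1965.5, 1381.8 and 1526.6 with DMSO, a 1.77-fold fall (log2 -0.83 ± 0.17 SE, limma adjusted p = 0.000823) with no overlap. Of 8 adipocyte markers tested 2 rose, Slc2a4 and Cidec, which are described with glycolysis and lipid droplets, 1 fell, Pparg itself, and 5 did not pass the test, at a median of 0.24. Adipoq (adiponectin) had 8737.2, 8327.6 and 5809.6 with RSG against 9241.0, 7789.2 and 6378.1 with DMSO (adjusted p = 0.926), and Fabp4 (the fatty acid binding protein of fat cells) averaged 6347.4 ± 997.7 and 5872.1 ± 1203.8 in the same order. Lpl, Cebpa and Lipe did not pass either. The summed signal of the 8 adipocyte markers was 28701.2 to 39296.3 with RSG and 26865.1 to 33175.1 with DMSO, which overlap. Of 23 genes known as PPARγ targets in fat cells 12 rose and 2 fell, at a median of 0.44, and the falls were Hsd11b1, given above, and Slc27a1, a fatty acid transport protein. The falls numbered 1 without RSG replicate 3 or DMSO replicate 3.

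Outside mitochondria the largest rise among genes with both group means above the presence limit was that of Acaa1b, a peroxisomal thiolase of fatty acid oxidation. It had signals of 1276.0, 1001.6 and 1037.7 with RSG against 37.3, 43.2 and 36.3 with DMSO, and rose 28.3-fold (log2 4.82 ± 0.16 SE, limma adjusted p = 8.6e-20). Peroxisomal genes rose in 16 of 36 cases and fell in 1, at a median of 0.38 (3 fell with the replicate block; none or 2 when single arrays were left out). Ephx2, the soluble epoxide hydrolase, had 3101.0, 2274.7 and 1920.7 with RSG against 864.3, 833.9 and 730.3 with DMSO (2.95-fold higher, limma adjusted p = 1.24e-09). Pex5, the import receptor for peroxisomal enzymes, averaged 420.0 ± 14.2 with RSG and 187.4 ± 73.1 with DMSO, and Mlycd, which breaks down malonyl-CoA, 346.2 ± 41.9 and 134.4 ± 26.7 in the same order. Both rose, and lack of overlap between the groups was required of them. Olr1, the receptor for oxidized LDL and a known PPARγ target of fat cells, had 228.6, 330.5 and 220.9 with RSG and 30.3, 19.6 and 41.7 with DMSO (8.77-fold higher, limma adjusted p = 2.69e-07).

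**Figure D3:**
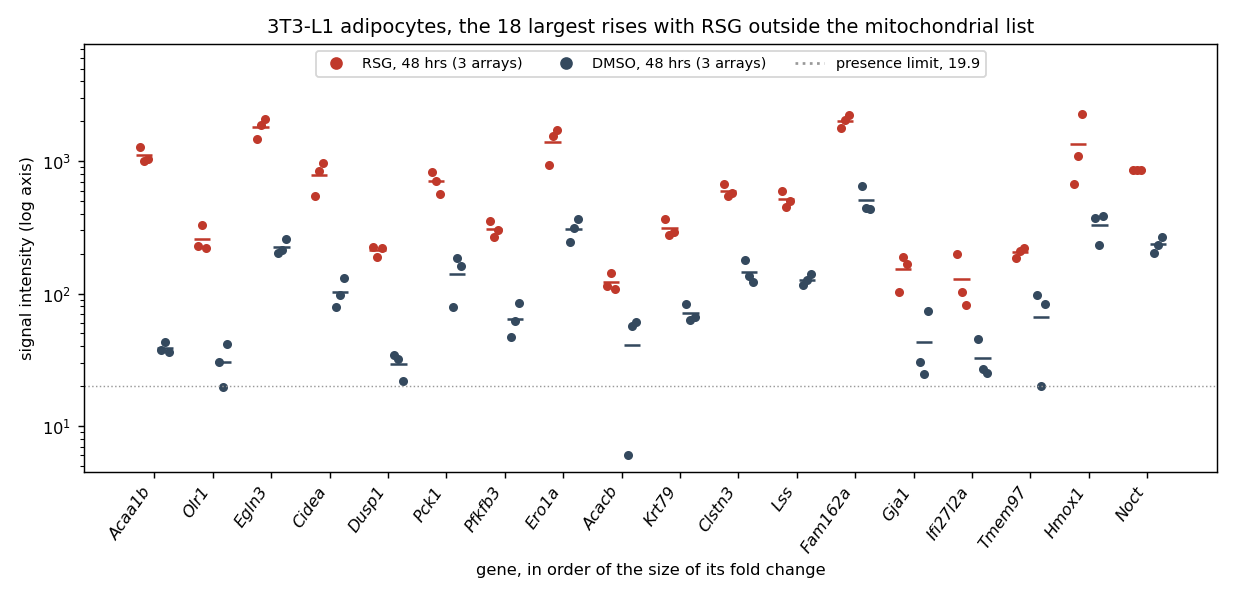
Signal intensity on a log axis for the 18 largest rises outside the mitochondrial list, with 3 RSG arrays (left in each pair) and 3 DMSO arrays (right) per gene and a dotted line at the presence limit. Acaa1b lies above 1000 on every RSG array, against 36.3 to 43.2 on DMSO arrays. No gene shown overlaps between the groups, which the choice of genes required.

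Glycolysis was the list with the highest share of rises, 17 of 26 genes (65.4%), with none lower (1 at an unadjusted p under 0.05) and a median of 1.13. Glucose enters fat cells through transporters and is cut to pyruvate and lactate, which monocarboxylate carriers move out. Slc2a4, the insulin-responsive glucose transporter GLUT4, had signals of 1133.0, 892.4 and 926.7 with RSG against 263.2, 560.6 and 644.4 with DMSO (log2 1.10, limma adjusted p = 0.000295), or 0.70 without DMSO replicate 1. Pfkfb3, which makes the activator of phosphofructokinase, had 354.3, 267.7 and 300.3 with RSG and 47.1, 62.2 and 84.4 with DMSO and rose 4.87-fold (limma adjusted p = 2.7e-07). Pfkl, a phosphofructokinase subunit, had 2545.9, 2294.8 and 2415.6 with RSG against 495.7, 781.0 and 871.3 with DMSO (3.47-fold higher). In each of these 3 genes all RSG arrays lay above all DMSO arrays, a condition of naming genes from a list. Aldoa (aldolase) averaged 9786.8 ± 2137.5 with RSG and 4411.2 ± 183.5 with DMSO, and Pgk1 (phosphoglycerate kinase) 6246.8 ± 913.0 and 2895.0 ± 509.6 in the same order. Ldha, the lactate dehydrogenase subunit that favors lactate, had 6234.6, 6243.5 and 4950.6 with RSG against 2486.9, 1860.8 and 2266.3 with DMSO (2.64-fold higher, limma adjusted p = 1.64e-07). Slc16a1, the lactate carrier MCT1, rose by 1.54 on the log2 scale, and Bsg, basigin, the chaperone that brings this carrier to the membrane, by 1.80, at 6583.8, 6401.1 and 5411.8 with RSG against 1850.7, 1646.7 and 1784.6 with DMSO (limma adjusted p = 1.7e-12). Gbe1, the glycogen branching enzyme, averaged 107.2 ± 28.5 with RSG and 33.3 ± 10.2 with DMSO.

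Many glycolytic genes are known to be turned on by hypoxia-inducible factors, whose core DNA motif is ACGTG. After the values had been seen, this motif was searched on both strands in RefSeq promoters from 250 bases before to 50 after the gene start (GRCm38.p6). It was found in 19.6% of all 32851 windows and for 21.8% of 27025 genes. Of the raised glycolysis genes 11 of 16 with a window held it (68.8%), and so did 6 of 8 that were not called (75%). The difference between these shares was not tested. The 150 bases before the start are shown for 4 raised genes picked among those with a match there. The letters ACGTG or their complement CACGT are in capitals, and overlapping matches on both strands form CACGTG. The stretches shown are chr7:46845654-46845803 on the plus strand for Ldha, chr2:11502091-11502240 on the minus strand for Pfkfb3, chrX:106186950-106187099 on the plus strand for Pgk1 and chr7:126799255-126799404 on the minus strand for Aldoa.
Ldha: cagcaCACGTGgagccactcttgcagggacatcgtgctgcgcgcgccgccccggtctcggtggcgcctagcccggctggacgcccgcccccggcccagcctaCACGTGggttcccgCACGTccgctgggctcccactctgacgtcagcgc
Pfkfb3: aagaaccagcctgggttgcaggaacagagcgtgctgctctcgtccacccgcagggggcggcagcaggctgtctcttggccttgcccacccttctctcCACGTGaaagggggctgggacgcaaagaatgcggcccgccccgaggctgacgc
Pgk1: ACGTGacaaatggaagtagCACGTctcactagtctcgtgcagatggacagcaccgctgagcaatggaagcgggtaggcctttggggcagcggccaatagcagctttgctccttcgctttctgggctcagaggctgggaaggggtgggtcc
Aldoa: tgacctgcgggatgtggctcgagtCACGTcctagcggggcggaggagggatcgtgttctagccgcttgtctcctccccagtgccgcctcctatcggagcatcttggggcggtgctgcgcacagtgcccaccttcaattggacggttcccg
A match describes the letters of a window only. The form that PPARγ with RXR binds, a direct repeat of AGGNCA with 1 base between, was found for 0.451% of all genes. None of the 21 genes with a window among the 25 largest falls held it, nor any of the 19 among the 25 largest rises outside the mitochondrial list. The CArG box of SRF was found for 1.81% of all genes and for none of these. The NF-κB site was found for 9.55% of all genes, none of the 21 and 3 of the 19 (15.8%).

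Genes of a list for angiogenesis and hypoxia, which holds genes that low oxygen induces and others of vessel growth, rose in 6 of 20 cases at a median of 0.15, and none fell (1 at an unadjusted p under 0.05, and 1 without DMSO replicate 1). Egln3, a prolyl hydroxylase that marks hypoxia-inducible factors for breakdown and is itself their target, was among the largest rises. It had signals of 1470.7, 1875.2 and 2062.7 with RSG against 203.7, 214.2 and 260.1 with DMSO (7.94-fold higher, limma adjusted p = 1.61e-10). Its relative Egln1 averaged 467.8 ± 100.3 with RSG and 213.5 ± 22.1 with DMSO, and Ddit4, an inhibitor of mTOR signaling, 273.5 ± 69.7 and 97.0 ± 48.7 in the same order. Vegfa had 531.9, 627.8 and 463.1 with RSG against 189.0, 224.3 and 265.8 with DMSO (2.39-fold higher, limma adjusted p = 4.37e-06). The 4 genes rose, and lack of overlap between the groups was required of them. Ero1a, which oxidizes disulfide bonds in the endoplasmic reticulum, had 926.7, 1557.5 and 1728.5 with RSG and 246.1, 311.4 and 366.5 with DMSO (log2 2.16). ACGTG was found in 5 of 6 raised genes and 3 of 9 genes that were not called.

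Genes of cholesterol synthesis rose, with 14 of 25 genes of synthesis and efflux higher and 1 lower at a median of 1.01 (the fall was lost without RSG replicate 1, RSG replicate 3 or DMSO replicate 3). Hmgcs1, which makes HMG-CoA at the head of the pathway, had signals of 3292.5, 3204.9 and 2400.4 with RSG against 910.3, 1045.7 and 934.7 with DMSO (3.05-fold higher, limma adjusted p = 2.44e-07). Idi1, which isomerizes the isoprene unit, had 613.9, 513.1 and 441.3 with RSG and 175.0, 178.4 and 168.4 with DMSO. Lss, which closes the sterol rings, had 599.6, 450.9 and 503.8 with RSG against 116.2, 125.7 and 140.1 with DMSO, and rose 4.05-fold (limma adjusted p = 6.4e-09). In these genes too the RSG arrays stood above all DMSO arrays, which the naming of genes from a list required. Cyp51, which takes a methyl group off lanosterol, averaged 395.3 ± 44.5 with RSG and 119.1 ± 45.0 with DMSO, and Msmo1, which acts on the next methyl groups, 2191.9 ± 637.2 and 704.0 ± 335.6 in the same order. Tmem97, a sterol-regulated membrane protein, rose by 1.90 on the log2 scale, or 1.18 without DMSO replicate 2. Scarb1, the HDL receptor that takes up cholesteryl ester, had 2876.3, 1823.5 and 2163.8 with RSG against 549.0, 855.4 and 932.0 with DMSO (2.96-fold higher, limma adjusted p = 5.95e-07).

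Fatty acid synthesis rose in 13 of 23 genes at a median of 0.62, and none fell, also at an unadjusted p under 0.05. Acss2, which turns acetate into acetyl-CoA, had signals of 795.1, 701.5 and 587.7 with RSG against 175.5, 255.7 and 192.5 with DMSO (3.36-fold higher, limma adjusted p = 1.19e-08). Me1 and Pgd, enzymes that supply NADPH from malate and from the pentose phosphate path, averaged 1365.7 ± 154.1 and 1167.2 ± 85.2 with RSG against 658.1 ± 185.5 and 558.6 ± 119.8 with DMSO. Scd3, a stearoyl-CoA desaturase, averaged 121.6 ± 14.7 with RSG and 51.1 ± 6.4 with DMSO. Acacb, the acetyl-CoA carboxylase whose product restrains fatty acid oxidation, passed the test at a log2 value of 2.14, but at 1.05 without DMSO replicate 1 it did not (adjusted p = 0.404).

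Proteins of the lipid droplet rose in 7 of 21 cases and fell in 1, at a median of 0.41 (4 rises without RSG replicate 1 or DMSO replicate 2, and 2 falls with the replicate block). Plin2, a droplet coat protein, had signals of 6411.5, 5737.3 and 4471.4 with RSG against 2219.0, 1777.3 and 1905.1 with DMSO (2.80-fold higher, limma adjusted p = 7.35e-10). Cidea, a droplet fusion protein of brown fat, had 543.9, 842.3 and 975.0 with RSG and 79.7, 97.8 and 132.0 with DMSO (7.57-fold higher, limma adjusted p = 5.71e-05). Its relative Cidec, of white fat, was bright in both groups, with 5675.9 ± 1313.8 with RSG and 3132.2 ± 321.0 with DMSO. All of these coat and fusion genes were higher on every RSG array, a condition of naming genes from a list. In lipolysis 5 of 12 genes rose and none fell (none at an unadjusted p under 0.05 either), among them Hcar2, the niacin receptor that inhibits it, at 1079.6 ± 146.8 with RSG and 401.0 ± 88.3 with DMSO, and Abhd5, the coactivator of the triglyceride lipase, at 988.4 ± 98.5 and 523.4 ± 34.0 in the same order. Of triglyceride synthesis genes 7 of 16 rose and 2 fell (3 rose without RSG replicate 1, and none or 1 fell without RSG replicate 2, DMSO replicate 1 or DMSO replicate 2). Pck1, the enzyme of glycerol supply in fat cells, had 829.9, 708.1 and 567.9 with RSG against 79.3, 184.7 and 160.3 with DMSO (log2 2.38, limma adjusted p = 3.77e-07), while its dimmer probe set gave 0.02 (adjusted p = 0.981). Of 14 genes of fatty acid uptake and binding 4 rose and 2 fell (no fall without RSG replicate 3, and 1 without DMSO replicate 2 or 3), the falls being Slc27a1 and Lrp1, a lipoprotein receptor. Fabp5, a fatty acid binding protein, averaged 3790.4 ± 396.4 with RSG and 1544.8 ± 154.4 with DMSO and Cd36, a fatty acid translocase, 3689.0 ± 471.1 and 2310.9 ± 384.9 in the same order. Retsat, a retinol saturase, rose by 1.63 on the log2 scale.

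Of 16 brown adipocyte markers 13 were on the array and 11 were tested, and Ucp1 and Prdm16 were not among these 11. The paper reports that RSG left Ucp1 unchanged in these cells. Of the 11 genes 4 rose (36.4%) and 1 fell (9.09%), beside 6.18% and 8.53% of all genes. The fall, that of Slc29a1 (1.57-fold), was not called without RSG replicate 2, DMSO replicate 2 or DMSO replicate 3. Elovl3, Kcnk3, Fabp3, Ucp3 and Dio2 were 1.11- to 1.78-fold higher and did not pass the test. The summed signal of the 11 markers was 2808.7 to 3045.6 with RSG and 1253.8 to 1385.9 with DMSO. Cidea made up a large part of this difference. Besides Cidea, the rises were those of Cox7a1 and Cox8b, muscle and brown fat forms of cytochrome oxidase subunits, and Pank1, a pantothenate kinase that starts the synthesis of coenzyme A. Cox7a1 had 285.0, 278.1 and 362.5 with RSG and 36.1, 51.1 and 41.8 with DMSO (limma adjusted p = 1.24e-09). Ppargc1a, the coactivator PGC-1α, was at 96.8, 94.8 and 77.6 with RSG and 70.2, 63.8 and 77.3 with DMSO and missed the threshold (adjusted p = 0.443). Its relative Ppargc1b had 392.7, 452.3 and 403.4 with RSG against 227.0, 206.7 and 193.8 with DMSO and rose (limma adjusted p = 0.000134).

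Of 30 immediate early genes 7 rose and 1 fell at a median of 0.20, and the falls were none without RSG replicate 3 and 2 without DMSO replicate 1 or 2. Of 31 genes of ER stress and protein folding 5 rose (16.1%) and 2 fell (6.45%), at a median of -0.02. The rises were 2 without RSG replicate 3 and 3 without DMSO replicate 1 or 3. There was 1 fall without RSG replicate 3 or DMSO replicate 2. Of 44 adipogenic transcription factors and cofactors 5 rose (11.4%) and 2 fell (4.55%), at a median of 0.04, beside 6.18% and 8.53% of all genes. Dusp1, a phosphatase that ends MAP kinase signals, had signals of 225.1, 190.4 and 219.7 with RSG against 34.3, 31.9 and 22.0 with DMSO (7.32-fold higher, limma adjusted p = 0.000264). Maff, a small Maf factor, was under the presence limit on every DMSO array, at 4.9, 11 and 5.7, against 86.2, 85.2 and 164.8 with RSG. It was at least 5.36-fold higher (limma adjusted p = 0.000136). Noct, a clock-linked phosphatase known as nocturnin, had 862.5, 859.5 and 859.8 with RSG and 203.8, 233.9 and 267.3 with DMSO (3.69-fold higher, limma adjusted p = 1.04e-08), the RSG arrays differing by far less than the groups. Cebpb, a factor of early fat cell formation, averaged 1263.9 ± 304.4 with RSG and 688.7 ± 178.2 with DMSO. Outside these lists, Ghrh, the gene of growth hormone-releasing hormone, had a mean under the presence limit with DMSO, with 112.7, 294.1 and 347.2 with RSG and 10.2, 10.0 and 22.5 with DMSO. It was at least 10.9-fold higher, and Krt36, a hair keratin, at least 4.72-fold (limma adjusted p = 2.16e-05 and 0.000155).

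The time course gives the levels from which the 48 hr values had moved. Over the 892 lowered genes the median change between 1 and 48 hrs was -0.58 on the log2 scale with RSG and 0.12 with DMSO, and over the 646 raised genes it was 0.65 with RSG and -0.11 with DMSO (all genes, -0.09 and 0.02). In glycolysis genes DMSO moved further than RSG, with a median of 0.29 with RSG and -0.70 with DMSO, and 19 and 4 of 26 genes higher at 48 than at 1 hr in the same order. Cholesterol genes had 1.30 with RSG and 0.19 with DMSO, and proteoglycan genes -0.49 with RSG and 0.05 with DMSO. These medians describe the members and were not tested. The lowered and raised genes were chosen on the same 48 hr arrays, which by itself moves their medians for RSG and DMSO apart. Ldha averaged 4451, 4375, 3652, 4126, 5999 and 5810 with RSG at the 6 times from first to last, against 4453, 3986, 3424, 3030, 2655 and 2205 with DMSO. Bsg was at 5802 and 6132 with RSG at 1 and 48 hrs, against 5580 and 1761 with DMSO. Hp, by contrast, was at 7196 with RSG at 1 hr and 723.2 at 48 hrs, against 7246 and 4119 with DMSO, and Cyp2f2 was at 474.6 and 85.8 with RSG, against 505.1 and 522.4 with DMSO. Sult1a1 differed through both groups, with 250.5 and 154.5 with RSG against 235.3 and 970.3 with DMSO at the same hours.

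**Figure D4:**
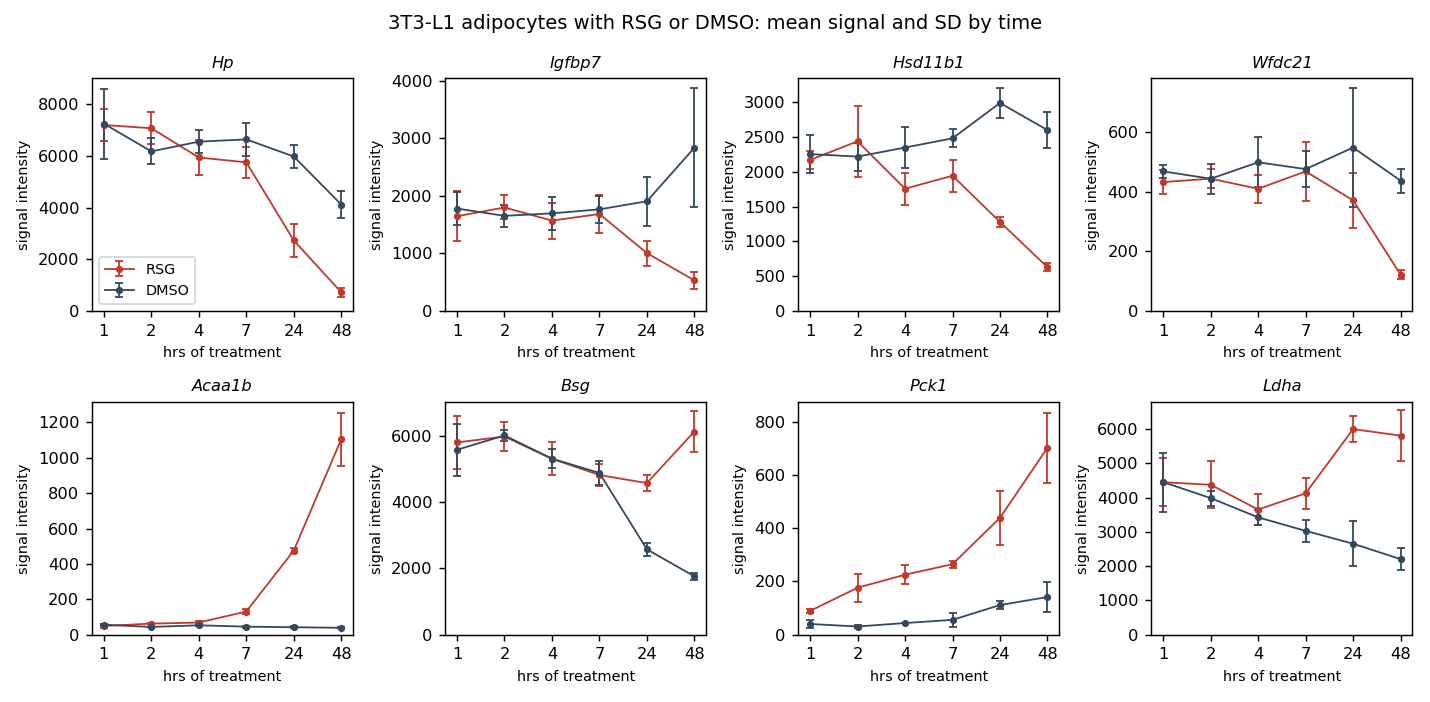
Mean signal intensity with SD against hrs of treatment (evenly spaced, not to scale) for 8 genes in 3T3-L1 adipocytes with RSG or DMSO (3 arrays a point, 2 for DMSO at 2 hrs). Hp and Hsd11b1 are lowest with RSG at 48 hrs, Acaa1b and Pck1 climb with RSG while DMSO stays low, and in Bsg and Ldha the DMSO signal is lowest at 48 hrs.

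Of the probe sets called at 48 hrs, 1404 lowered and 1056 raised ones had the same sign at 24 hrs. Of the lowered probe sets 726 were also lowered at 24 hrs, 49.8% of the 1458 and 57.8% of the 1256 called then, and of the raised ones 623, which is 55.8% of the 1117 and 72.2% of the 863 called then. The difference between the RSG effects at 48 and 24 hrs passed the test for 15 of 18028 probe sets, 0.0832%, with 8 more positive and 7 more negative at 48 hrs. At an unadjusted p under 0.05 there were 1082. Leaving out RSG replicate 3 gave 7 and leaving out DMSO replicate 1 gave 9, and none passed when only the groups compared were fitted. Hp fell by 2.53 on the log2 scale at 48 hrs and by 1.15 at 24 hrs (adjusted p of the difference = 0.00339), and Tfrc, the transferrin receptor, fell by 1.05 at 48 hrs and was at 0.14 at 24 hrs (adjusted p of the difference = 0.00159). Acaa1b (4.82 and 3.51) and Bsg (1.80 and 0.83) rose further at 48 than at 24 hrs. Lcn2, lipocalin 2, an iron-trapping acute phase protein, did not pass the test at 48 hrs (0.81, adjusted p = 0.0986; 0.0114 with the replicate block) and had fallen by 1.38 at 24 hrs.

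The same treatment of C3H/10T1/2 adipocytes, differentiated with 10 µM RSG and insulin, gave fewer calls. Of the 3T3-L1 calls tested in both lines, 270 of 1412 lowered and 307 of 1103 raised probe sets were called in the same direction, 19.1% and 27.8%. They made up 64.4% of 419 lowered and 68.7% of 447 raised C3H/10T1/2 probe sets. Those calls were counted among the probe sets tested in 3T3-L1 adipocytes as well, at most 18028. Of the 1412 and 1103 probe sets, 1294 and 994 had the same sign in both lines, and this share was not determined over all probe sets. The difference between the lines passed the test for 155 of 18274 probe sets, 0.848%, of which 120 were more positive and 35 more negative in 3T3-L1 adipocytes. A block on replicate number gave 391, such a block within each time 503, and leaving out DMSO replicate 1 gave 100. The log2 effect on Hp was -2.53, against -0.18 in C3H/10T1/2 adipocytes, and the difference of -2.35 passed the test (adjusted p = 0.00132). Among rises, the log2 effect on Plin2 was 1.48 in 3T3-L1, against 0.06 in the other line (adjusted p of the difference = 1.78e-06), Pfkl 1.80 and 0.52 (0.000113), Hmgcs1 1.61 and 0.28 (0.00137) and Ldha 1.4 and 0.43 (0.00906). Cyp2f2 (-2.60 and -2.76) and Sult1a1 (-2.64 and -1.82) fell in both lines, and the difference did not pass the test (adjusted p = 0.96 and 0.456).

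**Figure D5:**
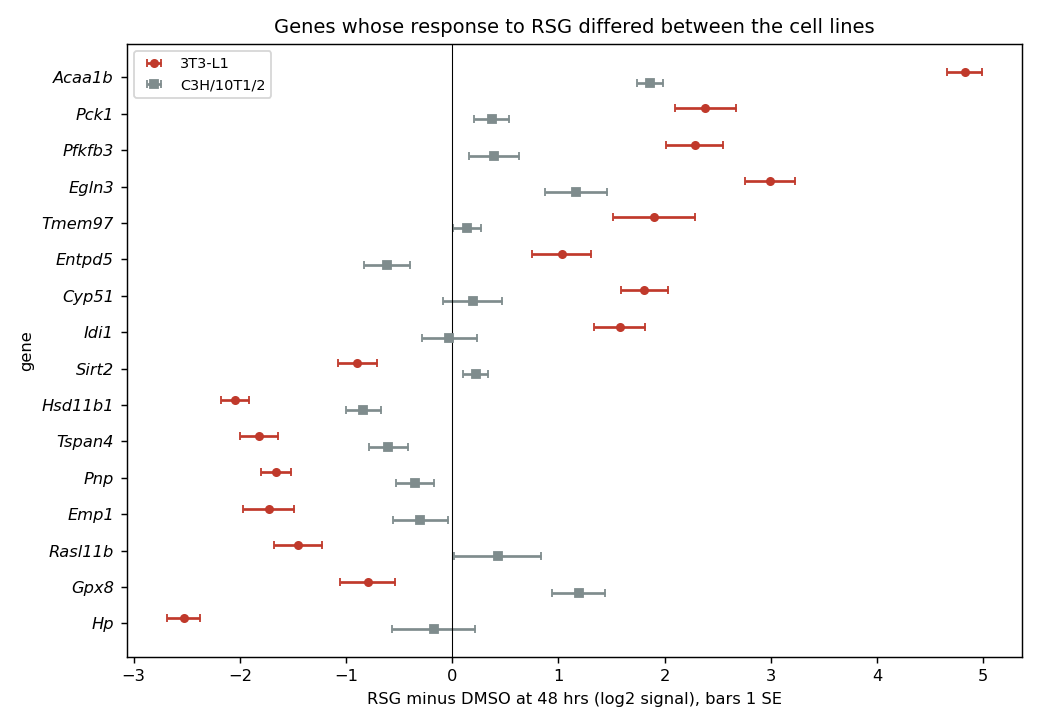
RSG minus DMSO at 48 hrs in log2 signal for 16 genes whose response differed between the lines, with 3T3-L1 (circles) and C3H/10T1/2 adipocytes (squares) and bars of 1 SE. Hp stands at -2.53 with its circle and -0.18 with its square, and Acaa1b at 4.82 and 1.86.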

How the data were processed

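RNA of adipocytes of both cell lines was hybridized by the authors to 71 Affymetrix mouse 430A arrays. The authors deposited 1 table of signal intensity on a linear scale, computed with MAS5 in GeneChip software, which subtracts background and scales each array; trimmed means of 2% per end lay between 150.05 and 150.07, and the values were not normalized again. The 64 control probe sets were set aside, 132 zeros were set to 0.1, and log2 intensities were fitted with limma 3.58.1 in R 4.3.3 (1 mean per group, intensity trend), with Benjamini-Hochberg adjustment over all tested probe sets. Python 3.11.15, pandas 2.3.3 and matplotlib 3.10.9 made tables and plots, and the fit was tested on simulated data. The presence limit of 19.9 is that of the study's methods. The number of arrays limits the precision.

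Genes came from the platform annotation, with 1 gene for 20380 of 22626 probe sets, several for 691 and none for 1555. Mitochondrial genes were set apart by symbol alone, so a few genes counted as outside mitochondria, such as Fam162a, code for mitochondrial proteins. Lists and members were chosen with earlier results of these data known. Genes were named where the adjusted p was under 0.05 and the groups did not overlap: the 25 largest falls and rises outside mitochondria, up to 5 each way per list, bounds for genes under the limit in a group, genes with the largest tested differences between times or lines, the brightest genes that changed, and all markers. With the group means removed, same-numbered RSG and DMSO arrays correlated at 0.107, 0.135 and 0.173 at 48 hrs, and at 0.176, 0.204 and 0.142 in C3H/10T1/2 adipocytes, so the numbers were taken to pair arrays, as the methods' batches of cells allow. Alternatives were other filters, a floor, no trend, fewer arrays in the fit, quantile normalization, the replicate block, the methods' analysis of variance, other probe sets and each array left out.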

Additional observations from a re-analysis of the deposited data

Results flagged for a closer look

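The results given here are those where the effect of RSG differed between times or cell lines by a test of the difference itself (limma, adjusted p under 0.05), given as differences of log2 effects. Against 24 hrs, the effect at 48 hrs differed by -1.372 for Hp, -1.314 for Wfdc21, -1.192 for Tfrc, 0.917 for Fads2, 0.967 for Bsg, 1.318 for Acaa1b and 2.188 for Lcn2, which did not pass the test at 48 hrs itself.

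Against C3H/10T1/2 adipocytes, the differences in 3T3-L1 adipocytes were -2.349 for Hp, -1.987 for Gpx8, -1.879 for Rasl11b, -1.427 for Emp1, -1.309 for Pnp, -1.215 for Tspan4, -1.211 for Hsd11b1 and -1.114 for Sirt2. They were 2.961 for Acaa1b, 2.014 for Pck1, 1.891 for Pfkfb3, 1.824 for Egln3, 1.766 for Tmem97, 1.644 for Entpd5, 1.617 for Cyp51 and 1.602 for Idi1. Gpx8, a glutathione peroxidase of the endoplasmic reticulum, had effects of opposite sign, at log2 -0.80, against 1.19 in the other line, but its groups overlapped in 3T3-L1 adipocytes and its call there was lost without RSG replicate 2 or 3 or DMSO replicate 1 or 3. The cells of the lines were differentiated with different amounts of RSG, so cell line and earlier exposure cannot be told apart.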

How the results depend on the processing

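With only the arrays at 48 hrs in the fit, 618 probe sets were lowered and 610 raised (557 and 437 outside mitochondria), and with only the groups compared 0 differed between times and 55 between lines. The methods' unadjusted test called 2569 and 1890 (2272 and 1457), 1049 and 1631. With 1 array left out the ranges were 1053 to 1284 lowered, 837 to 1163 raised, 953 to 1138 and 566 to 899 outside mitochondria, 7 to 17 between times and 100 to 192 between lines. With the replicate block, and with it within each time, 29 and 33 probe sets differed between times (same-numbered arrays at 24 hrs correlated at 0.167, 0.11 and 0.083, so the numbers do not settle pairing there) and 391 and 503 between lines. The block, which the main fit did not use, ended no call of a named gene. With it 1837 probe sets were lowered and 1409 raised at 48 hrs. No other alternative moved these counts by over 1.5 times. Of 262 called named genes 196 passed with only the arrays at 48 hrs, 248 without the trend, 248 in the methods' adjusted test, 254 without the filter, 254 after quantile normalization, 257 with the floor and 225 to 235 with 1 array left out, always in the same direction. Of 185 other probe sets of these genes 114 gave the same call and 56 the same direction only. In 15 the sign turned, at log2 values of 0.33 for Cryab, 0.22 for Cyp1b1, 0.18 for Acvr1, 0.084 for Pdgfra, 0.30 for Axl, 0.009 for Ier5, 0.34 for Sdc1, 0.45 for Hyou1, 0.24 for Rgs3, 0.19 and 0.34 for Cd151, -0.009 for Gpd1, -0.001 for Trib3, -0.69 for Pex16 and -2.01 for Flt1. Of these only Flt1 passed the test (adjusted p = 0.00589), and the cause was not tested. Signals near the presence limit carry the widest errors, and 3 arrays a group leave small changes undetected.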
